A study of Mus musculus with 4 samples.

Results

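The 50 genes described here encode the endoplasmic reticulum (ER) stress sensors and the machinery through which secretory and membrane proteins enter, fold in and leave the ER. They were taken from a list of names drawn up by known function, with earlier results of these data already known. All 50 were among the 14637 genes tested out of 55359 gene identifiers counted. By role, they comprised 4 sensors, 18 chaperones and folding enzymes, 14 genes of the translocon and signal peptide machinery, 6 genes of the COPII coat and 8 genes of ER degradation. With IRF4-RV, 15 of the 50 were called higher and 1 was called lower, together 32%, near the 29.7% called among all genes tested. Rises were found for *Derl3*, *Edem1* and *Herpud1* of ER degradation and for the transcripts of the sensors IRE1α, ATF6 and PERK. Of the most abundant chaperone genes per length, *Calr*, *Pdia3*, *Hspa5*, *P4hb* and *Canx* were not called. *Sdf2l1* was called lower and *Hsp90b1* higher, and both calls were lost under at least 1 other setting of the test.

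Proteins bound for the surface or for secretion are threaded into the ER while they are made, lose their signal peptide there, and are folded and glycosylated before COPII vesicles carry them to the Golgi. When unfolded proteins accumulate, the sensors IRE1α, PERK and ATF6 start the unfolded protein response, in which IRE1α splices the *Xbp1* mRNA, PERK slows translation and favors ATF4, and ATF6 is cut into a transcription factor. Proteins that fail to fold are drawn back into the cytosol and degraded, a process known as ER-associated degradation. In the B lineage, this machinery is known for its expansion as activated B cells become antibody-secreting plasma cells, for which IRF4 is required.

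T8 is a pB-ALL (B cell precursor leukemia) cell line that was established from 1 tumor of an *Irf4*-/- mouse on a layer of stromal cells. Per the paper, the line no longer needed this layer after several passages. Whether stromal cells were present when the libraries were made is not stated. EV-RV denotes T8 cells infected with a retrovirus carrying GFP alone, and IRF4-RV denotes T8 cells infected with the retrovirus carrying IRF4 together with GFP. Both groups therefore shared the *Irf4*-/- genotype and the infection, and each was represented by 2 bulk RNAseq libraries of cells still viable the day after infection. Nothing states that the 2 libraries of a group came from separate cultures, so p-values measure the spread between these libraries only, which may be technical.

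The libraries held between 31230223 and 37817752 counts, and a limit of 3 counts corresponded to between 0.0824 and 0.0952 CPM (counts relative to the library size after TMM scaling), which covers counting error only. *Irf4* (ENSMUSG00000021356) was counted 8070 and 7600 times in EV-RV and 95578 and 90693 times in IRF4-RV (log2 fold change 3.46, standard error 0.0907, edgeR adjusted p = 1.14e-06). Gene counts separate neither the exons of the locus nor the vector from it, so the reads in EV-RV were not traced further. The pre-B markers *Cd79a* and *Cd79b* were detected in every library and were not called, *Vpreb1* and *Igll1* were called lower, and *Rag1* had at most 1 count. Of the 7 markers of stromal cells, 5 were tested, with summed levels of 41.2 and 76.4 CPM in EV-RV and 41.3 and 185 CPM in IRF4-RV, highest in IRF4-RV replicate 2, while *Dcn* and *Lum* had at most 2 counts in any library. The 8 markers of T and NK cells summed to between 39 and 58 counts and the 7 of granulocytes to between 3 and 6. The 7 macrophage markers summed to 49 and 42 counts in EV-RV and to 285 and 263 in IRF4-RV, of which *Mrc1*, called higher, made up 260 and 230, while *Adgre1* and *Marco* had 0. Of the 6 plasma cell markers, *Prdm1* and *Slamf7* were called higher, *Sdc1* was called lower, *Mzb1* and *Jchain* were not called, and *Tnfrsf17* had 4 counts in 1 library and 0 in the rest.

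The ER stress response element (ERSE), through which ATF6 acts together with NF-Y, consists of CCAAT, 9 bases of any kind and CCACG. It was searched on both strands of RefSeq promoter windows on GRCm38.p6, which span 250 bases before and 50 bases after a transcription start and were found for 42 of the 50 genes. An ERSE was present in 9 of the 42 genes (21.4%), against 0.137% of all 27025 genes with a window and 0.151% of the genes tested. The genes were listed by known function in the ER, so this excess describes the list and is no result of IRF4-RV. The 10 matches are shown because, of the 6 elements searched, this one had the largest ratio between both shares. Each line runs 5′ to 3′ on the strand of the gene, with CCAAT and CCACG, or ATTGG and CGTGG where the element lies on the other strand, in capitals.
*Hspa5*, chr2:34772013-34772055, plus strand: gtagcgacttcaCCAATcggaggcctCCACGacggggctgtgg
*Hsp90b1*, chr10:86705626-86705668, minus strand: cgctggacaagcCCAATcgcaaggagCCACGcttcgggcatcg
*Hsp90b1*, chr10:86705521-86705563, minus strand: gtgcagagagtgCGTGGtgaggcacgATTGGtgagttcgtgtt
*Calr*, chr8:84847063-84847105, minus strand: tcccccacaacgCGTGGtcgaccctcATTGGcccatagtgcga
*Canx*, chr11:50325788-50325830, minus strand: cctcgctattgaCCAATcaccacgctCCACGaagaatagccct
*Pdia6*, chr12:17266479-17266521, plus strand: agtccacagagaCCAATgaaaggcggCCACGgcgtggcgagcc
*Creld2*, chr15:88819508-88819550, plus strand: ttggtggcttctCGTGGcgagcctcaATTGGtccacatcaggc
*Dnajc3*, chr14:118937815-118937857, plus strand: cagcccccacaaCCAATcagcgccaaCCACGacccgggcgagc
*Syvn1*, chr19:6046520-6046562, plus strand: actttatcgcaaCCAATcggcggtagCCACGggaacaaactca
*Derl3*, chr10:75893230-75893272, plus strand: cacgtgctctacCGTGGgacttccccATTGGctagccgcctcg

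An ERSE was found in 3 of the 13 genes called higher with a window (23.1%) and in 6 of the other 29 (20.7%). The 9 genes with an ERSE had a median log2 fold change of 0.16, with a range from -0.16 to 1.07, and the 33 without had a median of 0.16. Among the 9, *Hsp90b1*, *Dnajc3* and *Derl3* were called higher, and *Hspa5*, *Calr*, *Canx*, *Pdia6*, *Creld2* and *Syvn1* were not called.

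The other 5 elements were searched on both strands in the same way. The ERSE-II (ATTGG, 1 base, CCACG) was found for *Herpud1* and *Dnajb11*, against 0.0444% of all genes with a window. The UPRE core, which XBP1 and ATF6 can bind (TGACG followed directly by TGG), was found for *Txndc11*, *Txndc5* and *Sec24d*, 3 of 42 (7.14%) against 0.714%. The shorter TGACG, which the UPRE core contains, occurred in 20 of 42 genes (47.6%), against 23% of all genes and 36.2% of the genes tested. The ISRE and the EICE, through which IRF family factors bind DNA alone or with an ETS partner, were each found for 2 of 42 genes (4.76%), against 3.99% and 3.16% of all genes with a window. The ISRE (GAAA, 2 bases, GAAA) was found for *Sec23b* and *Txndc5*, and the EICE (GGAA, 2 bases, GAAA) for *Eif2ak3* and *Dnajb11*. A match describes the letters in a window and does not show binding. The matches in genes called higher follow, with the fixed letters of the element in capitals.
*Herpud1*, ERSE-II, chr8:94386365-94386399, plus strand: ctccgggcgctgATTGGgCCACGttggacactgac
*Txndc11*, UPRE core, chr16:11134615-11134646, minus strand: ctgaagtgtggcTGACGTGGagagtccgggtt
*Sec23b*, ISRE, chr2:144556145-144556178, plus strand: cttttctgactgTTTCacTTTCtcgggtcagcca
*Eif2ak3*, EICE, chr6:70844308-70844341, plus strand: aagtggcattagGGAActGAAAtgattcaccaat

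Of the 50 genes, 15 (30%) were called higher and 1 (2%) lower in the edgeR test at a false discovery rate (FDR) of 0.1. Of all genes tested, 29.7% were called, 16% of them higher and 13.7% lower, each as a share of the genes tested. The share of the 50 genes called in either direction, 32%, was thus near that of all genes, while more of the calls were higher among the 50 genes. Both IRF4-RV libraries were above both EV-RV libraries for 29 of the 50 genes and below them for 3, whereas 31.3% of all genes tested were above and 29.9% below. The median log2 fold change of the 50 genes was 0.16, with a range from -0.25 to 1.44, and 42 were above 0. The median was 0.0985 without EV-RV replicate 1. The median of all genes tested was 0.01, with 50.8% above 0. No set test was run, so these counts describe the list. By role, 75% of the sensors, 27.8% of the chaperones and folding enzymes and 37.5% of the ER degradation genes were called higher. The share was 21.4% for the translocon and signal peptide machinery and 16.7% for the COPII coat. The counts by role given below are to be read against the shares of all genes tested, and each role holds only 4 to 18 genes.

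Scaling by library size alone lowered the median of all genes to -0.08 and that of the 50 genes to 0.07, which left the distance between them at 0.15. The number of the 50 genes above 0 then fell from 42 to 31, and 37.8% instead of 53.8% of all calls were higher. The 11 genes that changed sign were *Calr*, *P4hb*, *Hyou1*, *Txndc5*, *Sec61a1*, *Ssr1*, *Ssr2*, *Ssr3*, *Sar1b*, *Derl1* and *Derl2*, none of which was called with TMM. Under either scaling, 42 of the 50 genes lay above the median of all genes. A change of scaling shifts the log2 fold changes of all genes by about the same amount. This count and the distance of 0.15 could therefore hardly differ between scalings and give no further support. The 50 genes together took 0.837% and 0.835% of the counts in EV-RV and 0.865% and 0.86% in IRF4-RV. Levels per length gave no such separation, since the summed TPM (length-scaled shares of all transcripts, without TMM factors) were 5488 and 5403 in EV-RV and 5475 and 5399 in IRF4-RV.

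**Figure D1:**
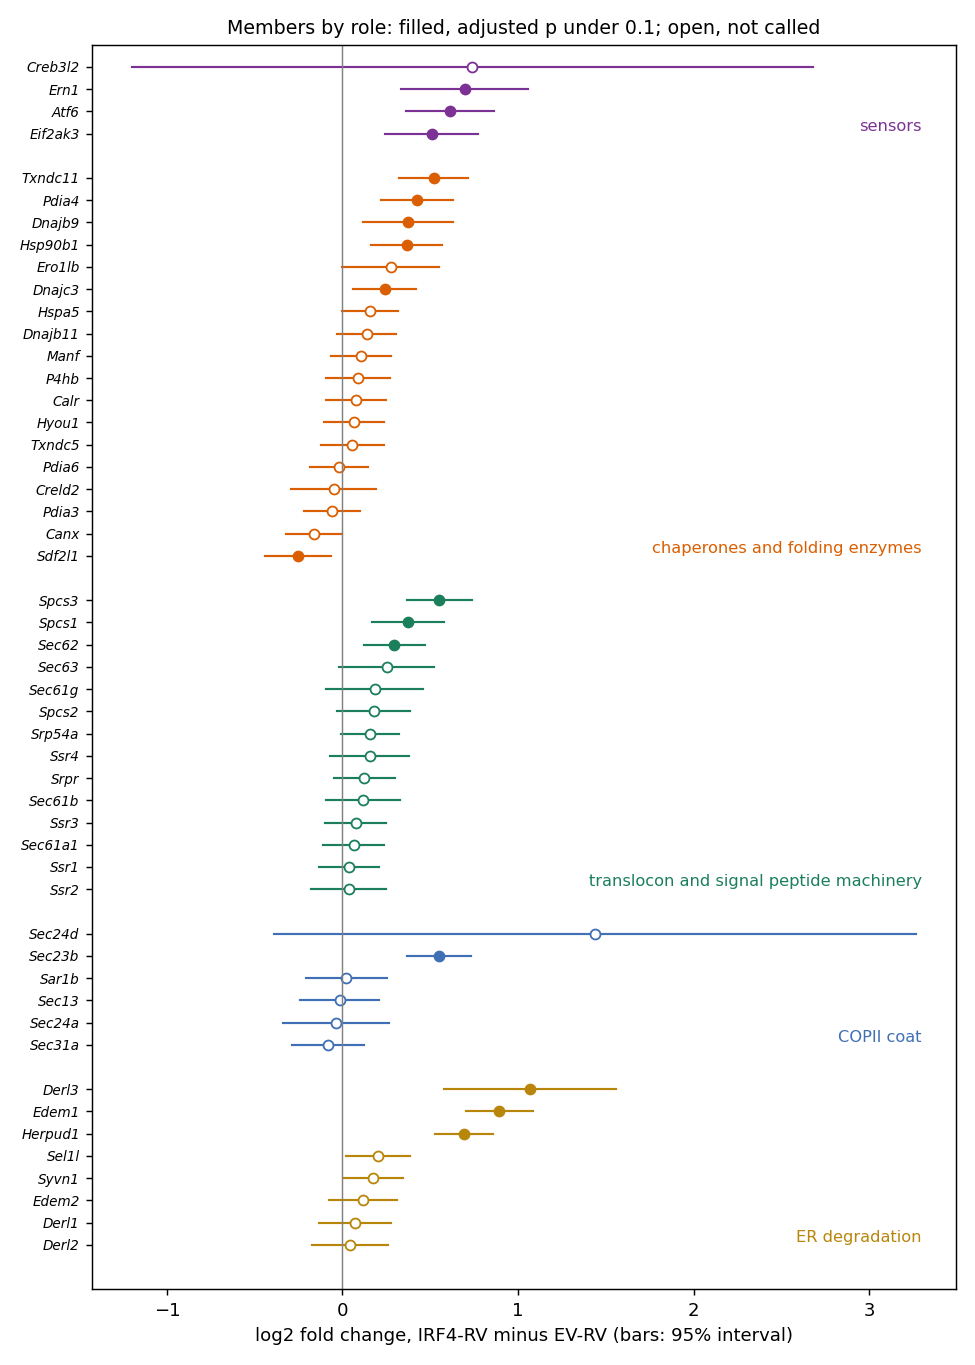
The log2 fold change of IRF4-RV over EV-RV is plotted for each of the 50 genes, by role, with its 95% interval from the edgeR fit with 2 libraries per group. Filled points are the 16 genes called at an FDR of 0.1, of which *Sdf2l1* alone lies below 0, and the widest intervals belong to *Creb3l2* and *Sec24d*.

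All 4 sensors had log2 fold changes above 0, and 3 were called higher. *Ern1*, which encodes the kinase and nuclease IRE1α, was counted 157 and 158 times in EV-RV and 292 and 260 times in IRF4-RV, corresponding to 4.71 and 5.01 against 8.62 and 7.14 CPM. *Atf6*, the membrane-bound precursor of a transcription factor, was at 63.3 and 55 CPM in EV-RV and at 97.5 and 83.5 CPM in IRF4-RV. *Eif2ak3*, which encodes the translation-limiting kinase PERK, was at 12.5 and 11.3 CPM and at 17.8 and 16.1 CPM. For each of these 3 genes, both IRF4-RV libraries were above both EV-RV libraries. The log2 fold changes were 0.70 ± 0.156 for *Ern1* (SE, edgeR adjusted p = 0.0158), 0.61 ± 0.108 for *Atf6* (SE, edgeR adjusted p = 0.00558) and 0.51 ± 0.114 for *Eif2ak3* (SE, edgeR adjusted p = 0.0161). These values concern the transcripts, and the splicing, cleavage or phosphorylation through which the sensors signal was not measured.

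*Creb3l2*, a relative of *Atf6* that is cut in the same way, had 12 and 7 counts in EV-RV and 4 and 31 counts in IRF4-RV. The groups overlapped, and the log2 fold change of 0.74 (95% interval from -1.20 to 2.68, edgeR adjusted p = 0.578) became -1.27 without IRF4-RV replicate 2. That library also had the highest summed level of the stromal cell markers. In EV-RV the order was the opposite, with 12 counts where the markers summed to 41.2 CPM and 7 where they summed to 76.4 CPM. The part of stromal cells in the value was not tested.

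Of the 18 chaperones and folding enzymes, 5 were called higher, 1 lower and 12 were not called, with a median log2 fold change of 0.10, or 0.15 without EV-RV replicate 2. *Txndc11*, a thioredoxin-like protein that assists ER degradation, was at 48.1 and 46.3 CPM in EV-RV and at 70.5 and 64.8 CPM in IRF4-RV, a log2 fold change of 0.52 ± 0.0853 (SE, edgeR adjusted p = 0.00412). *Pdia4*, a disulfide isomerase, was at 159 and 142 CPM against 211 and 193 CPM, a log2 fold change of 0.42 ± 0.0878 (SE, edgeR adjusted p = 0.0113). *Hsp90b1*, which encodes the HSP90 of the ER, GRP94, was at 382 and 334 CPM against 474 and 448 CPM, a log2 fold change of 0.37 ± 0.0868 (SE, edgeR adjusted p = 0.0202). Groups did not overlap for any of these. *Hsp90b1* missed the cutoff without IRF4-RV replicate 1 (edgeR adjusted p = 0.106), and 10.3% of its exon bases overlap a pseudogene on the other strand, whose reads may not be separated.

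The 2 remaining rises belonged to J domain proteins, which stimulate the ATPase of the chaperone BiP. *Dnajb9* was at 12.3 and 13 CPM in EV-RV and at 15.5 and 17.4 CPM in IRF4-RV, a log2 fold change of 0.37 (edgeR adjusted p = 0.0469). *Dnajc3*, which also restrains PERK, was at 104 and 97.4 CPM against 120 and 118 CPM, a log2 fold change of 0.24 (edgeR adjusted p = 0.0592). Both calls depended on the processing. *Dnajb9* missed the cutoff in DESeq2 (adjusted p = 0.126), without EV-RV replicate 1 (edgeR adjusted p = 0.176) and without IRF4-RV replicate 2 (edgeR adjusted p = 0.224). *Dnajc3* missed it without EV-RV replicate 2, without IRF4-RV replicate 1 and without IRF4-RV replicate 2, with edgeR adjusted p of 0.191, 0.326 and 0.21. With library size alone, *Dnajb9* and *Dnajc3* missed it as well (edgeR adjusted p = 0.104 and 0.232).

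*Sdf2l1*, a component of BiP complexes, was the single gene called lower. It was at 190 and 213 CPM in EV-RV and at 168 and 170 CPM in IRF4-RV, without overlap, for a log2 fold change of -0.25 ± 0.0815 (SE, edgeR adjusted p = 0.0617). The call was lost without EV-RV replicate 2, where the log2 fold change was -0.16 (edgeR adjusted p = 0.229), and without either IRF4-RV library (edgeR adjusted p = 0.177 and 0.229).

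*Calr*, *Hspa5* and *Canx* were among the abundant chaperone genes that were not called. *Calr*, which encodes calreticulin, the lectin that retains glycoproteins until they are folded, had the highest level per length of the 50 genes, at 693 TPM in EV-RV. It was at 864 and 921 CPM in EV-RV and at 928 and 958 CPM in IRF4-RV (log2 fold change 0.08, 95% interval from -0.09 to 0.25). *Hspa5*, which encodes BiP, was at 632 and 645 CPM against 706 and 718 CPM, so that groups did not overlap, and its log2 fold change of 0.16 did not pass the cutoff (95% interval from -0.0025 to 0.32, edgeR adjusted p = 0.15). *Canx*, which encodes calnexin, the membrane-bound counterpart of calreticulin, was at 601 and 604 CPM against 538 and 540 CPM, with a log2 fold change of -0.16 (edgeR adjusted p = 0.141). It was called lower with library size alone (log2 fold change -0.25, edgeR adjusted p = 0.0232). The 12 genes of this group that were not called had log2 fold changes between -0.16 and 0.27.

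All 14 genes of the translocon and signal peptide machinery had log2 fold changes above 0, of which 3 were called higher and none lower, with a median of 0.16. The median was 0.046 without EV-RV replicate 1. *Spcs3* and *Spcs1* encode noncatalytic subunits of the signal peptidase, which removes the signal peptide. *Spcs3* was at 188 and 211 CPM in EV-RV and at 291 and 294 CPM in IRF4-RV, a log2 fold change of 0.55 ± 0.0803 (SE, edgeR adjusted p = 0.00237). *Spcs1* was at 65 and 74.4 CPM against 90.1 and 90.5 CPM, a log2 fold change of 0.37 ± 0.0892 (SE, edgeR adjusted p = 0.0206). *Sec62*, which works beside the Sec61 channel in the import of precursors after their synthesis, was at 70.3 and 70.8 CPM against 87.7 and 85.5 CPM, a log2 fold change of 0.30 ± 0.0749 (SE, edgeR adjusted p = 0.0264). Groups did not overlap for these 3 genes. *Sec62* missed the cutoff without either IRF4-RV library (edgeR adjusted p = 0.203 and 0.106). *Glt8d1* covers 16.3% of the exon bases of *Spcs1* and an antisense gene 11.7% of those of *Sec62*, both from the other strand, and whether counting used the strand is not given in the sources used here.

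The channel itself, the translocon-associated SSR proteins and the signal recognition particle genes were among the 11 genes not called, with log2 fold changes between 0.04 and 0.25. *Sec61b*, a small subunit of the Sec61 channel, had the highest level per length of the group, at 220 TPM in EV-RV. It was at 118 and 132 CPM in EV-RV and at 128 and 143 CPM in IRF4-RV, with overlapping groups. Counts of *Srp54a* are uncertain because near-identical copies of this gene exist. Without EV-RV replicate 2, 6 instead of 3 of these 14 genes were called, with *Sec61g*, *Ssr4* and *Spcs2* added.

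In the COPII coat, 1 of 6 genes (16.7%) was called higher, near the 16% of all genes tested, and none lower. The median log2 fold change was 0.00, or 0.12 without EV-RV replicate 2. *Sec23b*, which encodes a subunit of the inner coat, was at 82.2 and 88.2 CPM in EV-RV and at 121 and 128 CPM in IRF4-RV. The groups were well apart, and the log2 fold change was 0.55 ± 0.0791 (SE, edgeR adjusted p = 0.00226). *Sar1b*, the GTPase that recruits the coat, was at 108 TPM in EV-RV, the highest of the group by union exon length, whereas by the longest transcript *Sec13* was at 122 TPM and *Sar1b* at 90.5 TPM. *Sar1b* was at 56.5 and 65.2 CPM against 58.9 and 64.7 CPM. Apart from *Sec24d*, the 4 genes not called had log2 fold changes between -0.08 and 0.02.

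*Sec24d*, one of the cargo-binding subunits, had 6 and 24 counts in EV-RV and 17 and 74 counts in IRF4-RV. Its log2 fold change was the largest of the 50 genes, at 1.44, but the groups overlapped and the 95% interval ran from -0.39 to 3.27 (edgeR adjusted p = 0.241). It was 0.11 without IRF4-RV replicate 2 (edgeR adjusted p = 0.953) and 2.10 without IRF4-RV replicate 1 (edgeR adjusted p = 0.00108). In both groups the library with more *Sec24d* also had the higher summed level of the stromal cell markers, whose part in the value was not tested.

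**Figure D2:**
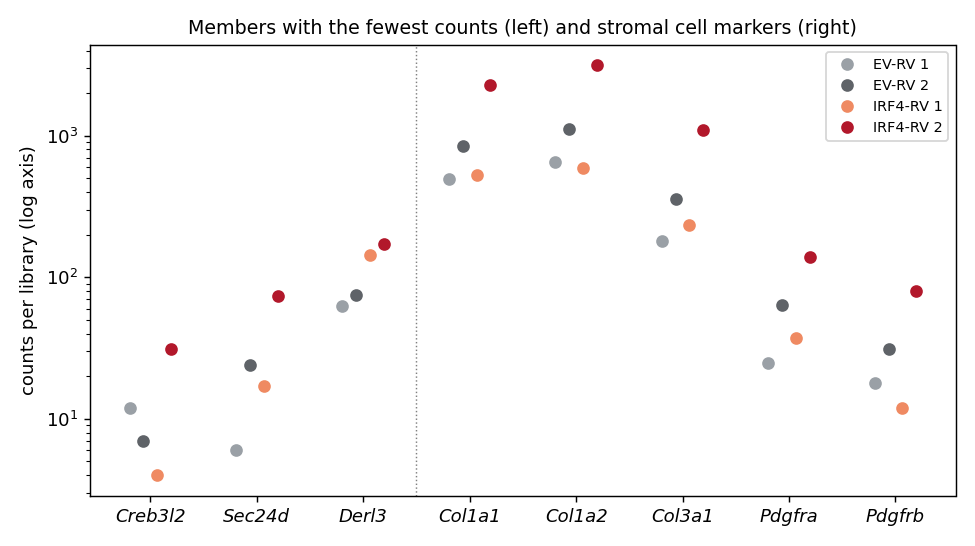
Counts in each library, on a log axis, are plotted for the 3 genes of the set with the fewest counts and for the 5 stromal cell markers that were tested. *Creb3l2* and *Sec24d* are highest in IRF4-RV replicate 2, as are all 5 markers, whereas *Derl3* is higher in both IRF4-RV libraries than in both EV-RV libraries.

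Among the 8 genes of ER degradation, 3 were called higher and none lower, and all 8 had log2 fold changes above 0, with a median of 0.19. *Derl3*, a channel component through which misfolded proteins leave the ER, was counted 63 and 75 times in EV-RV and 144 and 171 times in IRF4-RV, or 1.89 and 2.38 against 4.25 and 4.7 CPM. *Edem1*, which trims mannose and thereby marks glycoproteins for degradation, was at 75.8 and 82.2 CPM in EV-RV and at 151 and 142 CPM in IRF4-RV. *Herpud1*, which organizes the ubiquitin ligase complex of the membrane, was at 133 and 138 CPM and at 220 and 217 CPM. In each case both IRF4-RV libraries stood clearly above both EV-RV libraries. The log2 fold changes were 1.07 ± 0.21 for *Derl3* (SE, edgeR adjusted p = 0.00907), 0.89 ± 0.0816 for *Edem1* (SE, edgeR adjusted p = 0.000254) and 0.69 ± 0.0713 for *Herpud1* (SE, edgeR adjusted p = 0.000447), or 2.1-fold, 1.86-fold and 1.61-fold. These 3 calls were made under each of the 11 other settings of the test, and *Derl3* ranged from 0.90 to 1.25 with single libraries left out.

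The 5 genes of this group that were not called, among them the ligase gene *Syvn1* and its partner *Sel1l*, had log2 fold changes between 0.04 and 0.20. *Sel1l* was at 70.3 and 69.2 CPM in EV-RV and at 82.5 and 78 CPM in IRF4-RV, without overlap, and lay close to the cutoff (edgeR adjusted p = 0.109). *Herpud1* had the highest level per length of the group, at 130 TPM in EV-RV. Summed over the 8 genes, the level was 614 and 644 CPM in EV-RV and 833 and 811 CPM in IRF4-RV.

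**Figure D3:**
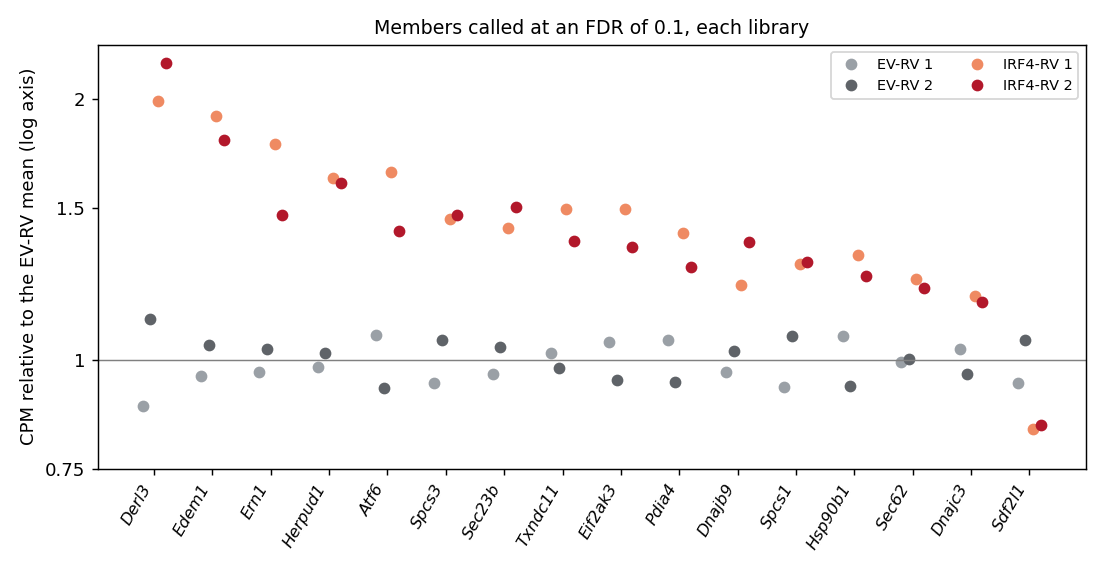
For the 16 genes called, the CPM in each library is plotted relative to the mean of the 2 EV-RV libraries, on a log axis. Both IRF4-RV points lie above both EV-RV points for 15 genes, from *Derl3* down to *Dnajc3*, and below them for *Sdf2l1*. The genes were chosen by their call in these same libraries, so the separation gives no further support.

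Of the 16 calls, 11 were made under all 11 other settings of the test, which included DESeq2, other scalings and filters, an FDR of 0.05 and leaving out each library. These were *Ern1*, *Atf6*, *Eif2ak3*, *Pdia4*, *Txndc11*, *Spcs1*, *Spcs3*, *Sec23b*, *Edem1*, *Herpud1* and *Derl3*. The other 5, lost under at least 1 setting, were *Hsp90b1*, *Dnajb9*, *Dnajc3*, *Sdf2l1* and *Sec62*. Without IRF4-RV replicate 2, the library with the highest stromal cell markers, 13 of the 50 genes were called, of which 12 were among the 16.

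Levels spanned a wide range. Per length, 43 of the 50 genes lay above the median of the 14578 genes tested with a length in EV-RV, and 16 were in the top 10%. These 16 genes held 4 of the 15 rises and the single fall, with a median log2 fold change of 0.08, against 0.16 for the 27 genes between the median and the top 10%. The 7 genes below the median level held 3 rises, and their median was 0.70, with *Creb3l2* and *Sec24d* among them. Highest in the whole set after *Calr* were *Sdf2l1* with 407 TPM, *Pdia3* with 389 TPM and *Hspa5* with 338 TPM, with *Pdia3* ahead of *Sdf2l1* by the longest transcript, and the lowest of the genes called were *Ern1* with 1.33 TPM and *Derl3* with 2.39 TPM. This is a description, since the precision of a fold change also varies with the level.

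**Figure D4:**
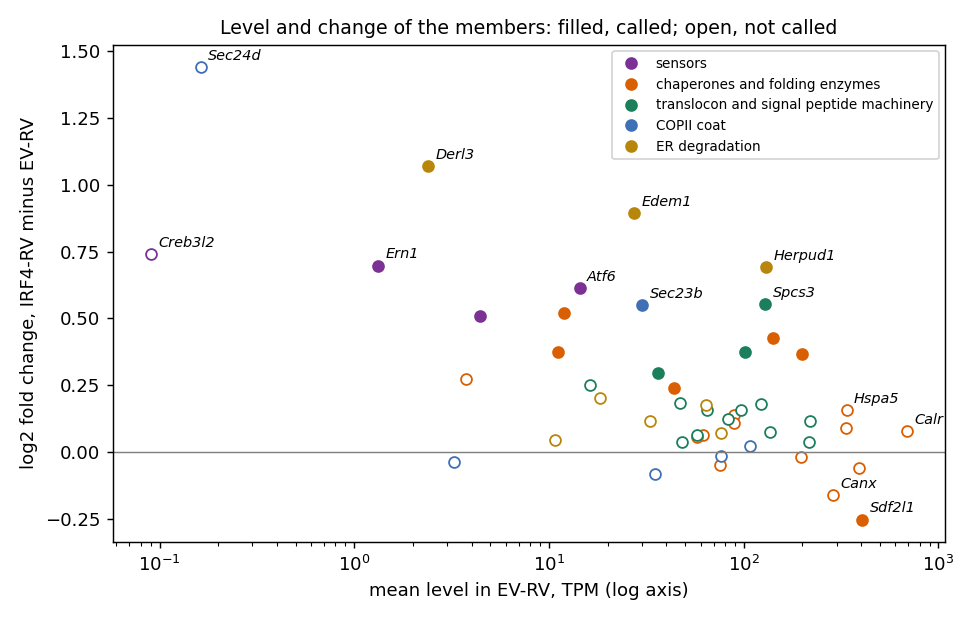
The log2 fold change is plotted against the mean level of each of the 50 genes in EV-RV, in TPM on a log axis, with filled points for genes called at an FDR of 0.1 and colors for the roles. The genes with the highest levels, from *Hspa5* to *Calr*, lie between -0.25 and 0.16, and *Derl3*, *Edem1* and *Herpud1* are called higher at 3 different levels.

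The rest of the pathway was followed in 8 further lists with 144 genes, of which 136 were tested, 29 called higher and 13 lower, with a median log2 fold change of 0.08. The share called in either direction, 30.9%, was near the 29.7% of all genes tested, of which 16% were higher and 13.7% lower, and the counts of the single lists are to be read against these shares. The lists belonging to the arms of the unfolded protein response differed in their counts, and no test compared them. In the list of the IRE1 and ATF6 arm and related factors, 6 of 12 genes tested were called higher and none lower, with a median of 0.21. With single libraries left out, 5 or 6 were higher, and 1 was lower without IRF4-RV replicate 1. *Xbp1*, the mRNA that IRE1α splices, was at 124 and 144 CPM in EV-RV and at 224 and 251 CPM in IRF4-RV, a log2 fold change of 0.82 ± 0.0982 (SE, edgeR adjusted p = 0.000945), and gene counts do not separate its spliced form. The largest rise of the list belonged to *Wfs1*, an ER membrane protein involved in calcium balance, which was counted 50 and 53 times against 140 and 136 times (log2 fold change 1.31, edgeR adjusted p = 0.00439).

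In the list of the PERK and ATF4 arm, 1 of 13 genes was called higher, 5 lower and 7 were not called, and the median was 0.00. Of these, 3 were lower without EV-RV replicate 2 and 4 without any other single library, and 2 were higher without IRF4-RV replicate 1. *Atf4* was at 180 and 183 CPM in EV-RV and at 125 and 134 CPM in IRF4-RV, a log2 fold change of -0.49 ± 0.0751 (SE, edgeR adjusted p = 0.00318). *Ddit3*, which encodes the proapoptotic factor CHOP, was counted 141 and 133 times against 96 and 124 times, with a log2 fold change of -0.43 that did not pass the cutoff (edgeR adjusted p = 0.15) but did with library size alone (edgeR adjusted p = 0.0913). *Chac1*, a target of ATF4 that degrades glutathione, fell from 72 and 89 to 27 and 40 counts (log2 fold change -1.39, edgeR adjusted p = 0.0157, and 0.103 without EV-RV replicate 2). The single rise was that of *Atf3*, a stress-inducible factor that is also induced outside this pathway, from 99 and 88 to 741 and 929 counts (log2 fold change 3.04, edgeR adjusted p = 8.12e-06).

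Among other folding enzymes, 5 of 19 genes tested were called higher and none lower, led by *Dnajc10*, a disulfide reductase that assists degradation, with a log2 fold change of 0.70 (edgeR adjusted p = 0.000964). That list held 2 higher and 1 lower without EV-RV replicate 1 and 3 higher and 1 lower without IRF4-RV replicate 2. Among other genes of ER degradation, 10 of 23 were called higher and 1 lower, with a median of 0.12. The higher calls numbered 5 without IRF4-RV replicate 1 and 7 to 9 without any other single library. The largest rise was that of the mannosidase gene *Man1b1*, from 53.5 and 53.7 to 93 and 95.5 CPM (log2 fold change 0.82, edgeR adjusted p = 0.000275). The fall was that of the ubiquitin-conjugating enzyme gene *Ube2j2* (log2 fold change -0.22, edgeR adjusted p = 0.0959), which missed the cutoff with any single library left out. In other genes of targeting and translocation, 5 of 24 were called higher and 4 lower, from *Tram2*, a translocon-associated protein (log2 fold change 1.23, edgeR adjusted p = 0.000462), to *Wrb*, a receptor subunit for tail-anchored proteins (log2 fold change -0.58, edgeR adjusted p = 0.0166). The higher calls fell to 3 without EV-RV replicate 1 and without either IRF4-RV library, and the lower calls to 2, 1 and 2 without EV-RV replicate 2, IRF4-RV replicate 1 and IRF4-RV replicate 2. *Sec11c*, a catalytic subunit of the signal peptidase that *Spcs1* and *Spcs3* belong to, was at 76 and 92.4 CPM in EV-RV and at 167 and 168 CPM in IRF4-RV (log2 fold change 0.99, edgeR adjusted p = 0.000433); it was chosen after its values were seen.

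The last lists cover glycosylation and vesicles. Of 14 genes of the oligosaccharyl transferase and glycan trimming, none was called higher and 1 lower, namely the glucosidase gene *Mogs* (log2 fold change -0.67, edgeR adjusted p = 0.00145), with a median of -0.06, and 2 were lower without EV-RV replicate 1. Other genes of COPII and ER exit counted 2 higher and 2 lower of 22, from *Tfg*, which organizes ER exit sites (log2 fold change 0.42, edgeR adjusted p = 0.00751), to *Mia3*, a cargo receptor for bulky proteins (log2 fold change -0.46, edgeR adjusted p = 0.00945), and 1 higher and 1 lower without IRF4-RV replicate 2. Of the 9 COPI genes, which act in the return to the ER, edgeR called none at an FDR of 0.1, nor did DESeq2, and 1 had an unadjusted edgeR p under 0.05. Without EV-RV replicate 2 and without IRF4-RV replicate 1, 1 was called higher.

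**Figure D5:**
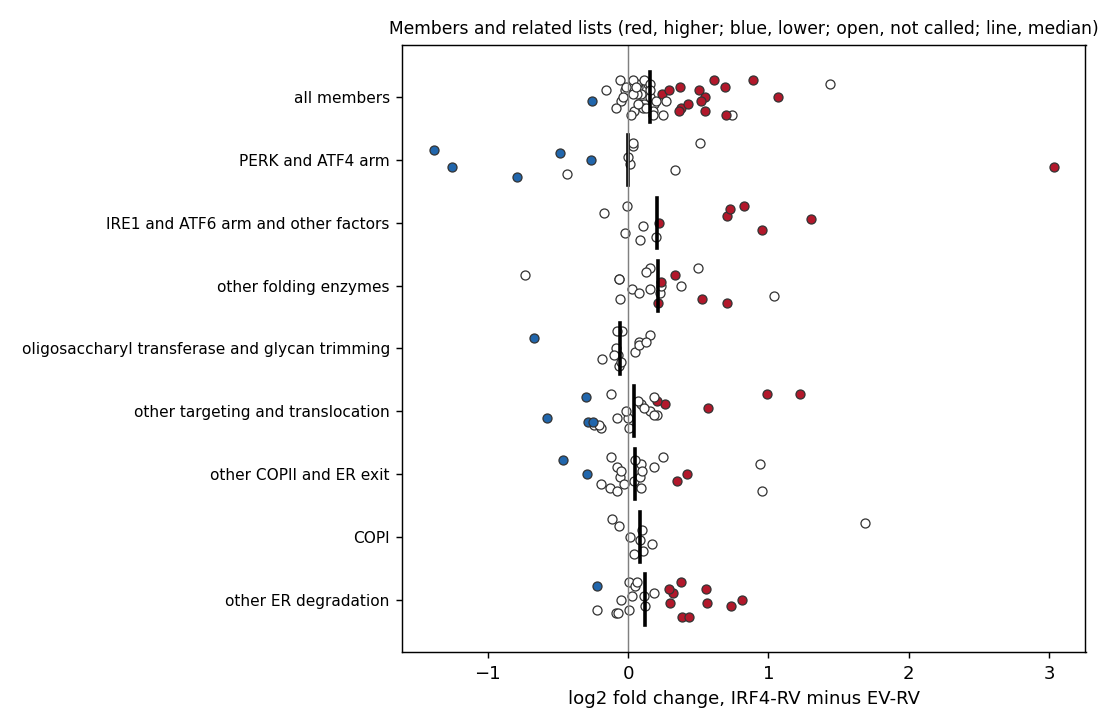
Each point is the log2 fold change of 1 gene tested, for the 50 genes and the 8 further lists, in red or blue where called higher or lower and open where not called, with a line at the median of each list. The list of the PERK and ATF4 arm holds 5 blue points of 13 and 1 red point, *Atf3*, at 3.04. The list of the IRE1 and ATF6 arm and related factors holds 6 red points of 12 and no blue one. No test compared the lists.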

How the data were processed

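Samples were grouped and numbered by their titles, which name T8 although the protocol text names T11. Per the submitters' processing notes, STAR 2.4.0j served for alignment to GRCm38 and featureCounts for counting. The authors deposited raw counts for each Ensembl gene, not normalized. Settings for strand and multiple alignments are not given in the sources used here. Symbols and lengths came from GENCODE M21, which held 52083 of the 55359 identifiers.

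Genes passing filterByExpr were tested across all genes in R 4.3.3 with edgeR 4.0.16 (TMM factors, quasi-likelihood F test, p-values adjusted by Benjamini-Hochberg, FDR cutoff 0.1 after the paper). CPM use TMM factors. TPM were computed here from counts and union exon length. The same code was tested on simulated data. Alternatives were DESeq2 1.42.0, DESeq2 size factors, library size only, 2 other filters, an FDR of 0.05, the replicate block, leaving out each library, the longest transcript as length and another promoter background. The 50 genes and all lists were chosen with earlier results of these data known. Genes named are *Irf4*, the 4 sensors, up to 5 called rises and 5 falls per role, the most abundant gene per role, low-count genes, the largest called rise and fall of each further list, *Xbp1*, *Atf4* and *Ddit3*. Genes named beyond these and the cell type markers were chosen after their values were seen. Of the listed symbols of further genes, 3 were not matched. ER retention signals were planned and not analysed here. Of the cell type markers, 1 is not reported here.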

Additional observations from a re-analysis of the deposited data

How the results depend on the processing

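With library size only, the median log2 fold change of the 50 genes was 0.0664, 2 of them were called lower, the chaperones and folding enzymes held 3 higher and 2 lower, the further lists held 24 lower, and 6 of the 50 genes instead of 3 were below EV-RV in both libraries. With all genes of at least 1 count, 2 COPII genes were called higher, and at an FDR of 0.05 none of the 50 genes, hence 0 chaperones, was called lower. The replicate numbers share no stated origin, and with 2 per group the samples were not taken as paired. Deviations of same-numbered libraries correlated with r = 0.26 across all genes and 0.34 across the 50 genes, and genes are not independent. With the replicate block, 6394 genes were called, and of the 50 genes 26 were higher and 2 lower. These included 8 higher and 2 lower chaperones, 8 translocon genes, 2 COPII genes and 5 of ER degradation. The further lists then held 21 lower. In simulated data without a replicate effect, in which 200 of 14637 genes were changed, 21.7% of the calls made with this block were false. The share was 10.4% for edgeR without it. Many more genes were called in the real data, and the simulation held no effect for the block to remove. It therefore cannot judge the block on these data. With 1 library left out, the lone sample of a group is assumed to vary like the other group. The genes called numbered 3573 to 3646, the median of the 50 genes ran from 0.10 to 0.18, 13 to 17 of them were called higher and 0 to 1 lower, chaperones 3 to 4 higher and 0 to 1 lower, translocon genes 2 to 6 and COPII genes 1 to 2 higher, and the further lists 20 to 30 higher and 8 to 15 lower. The cause of these shifts was not tested. No called value changed sign. Of the genes not called, 11 fell below 0 with library size only, with log2 fold changes of -0.0109 for *Calr*, -8e-04 for *P4hb*, -0.0268 for *Hyou1*, -0.0352 for *Txndc5*, -0.025 for *Sec61a1*, -0.0525 for *Ssr1*, -0.0528 for *Ssr2*, -0.0152 for *Ssr3*, -0.0667 for *Sar1b*, -0.0175 for *Derl1* and -0.0463 for *Derl2*. With 1 library left out, the sign changed for genes not called whose log2 fold changes then ran between -1.27 and 1.51 for *Creb3l2*, -0.006 and 0.11 for *Txndc5*, -0.0639 and 0.0201 for *Pdia6*, -0.17 and 0.0673 for *Creld2*, -0.024 and 0.0934 for *Ssr1*, -0.082 and 0.16 for *Ssr2*, -0.22 and 0.12 for *Sec24a*, -0.13 and 0.10 for *Sec13*, -0.0867 and 0.13 for *Sar1b*, -0.0354 and 0.18 for *Derl1* and -0.0406 and 0.12 for *Derl2*. With 2 libraries per group, small changes of abundant genes and any change of *Creb3l2* or *Sec24d* are beyond the precision of these data.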

Other observations

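Like *Sec24d* and *Creb3l2*, some genes of the further lists were highest in IRF4-RV replicate 2 and were not called. The counts in EV-RV and IRF4-RV were 7 and 11 against 2 and 37 for *Kdelr3*, a receptor that returns escaped ER proteins, 2 and 18 against 19 and 53 for the COPI gene *Copz2*, and 42 and 86 against 77 and 214 for *Qsox1*, a sulfhydryl oxidase. *Fkbp14*, a collagen-related proline isomerase, had 5 and 6 against 4 and 39 counts and did not pass the filter. These genes were chosen after their values were seen.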
